A study of Mus musculus with 4 samples.

Results

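The genes described here are 42 components of the endoplasmic reticulum (ER), out of 49997 genes counted in explants of the mouse AGM (aorta-gonad-mesonephros), the embryonic tissue in which blood stem cells first arise. They were chosen by gene symbol for their known role after differences between these same 4 libraries had been seen, so every difference below is a description of these libraries. The roles are folding factors (17 genes), stress sensors with the proteases that release them (7 genes), ER-associated degradation (11 genes) and the translocon (7 genes). All 42 symbols were found, and 41 passed the filter on low counts. The exception, Fkbp2, is treated separately.

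The untreated group (n = 2) and the CCCP group (n = 2) both came from C57BL/6J embryos of embryonic stages E10.5 and E11.5, according to the growth protocol, while the series design names E10.5 alone. Explants of both groups were kept for 48 hours on a filter at the surface of a hydrocortisone-containing medium, and the CCCP group received 5 µM CCCP for 48 hours. CCCP is a protonophore, which carries protons across the inner mitochondrial membrane and so dissipates the membrane potential. The labels do not say how many embryos made a library or whether the replicates came from separate litters, so the spread between libraries may be partly technical. The cell type is labelled as stem cells, and the series design speaks of c-kit+ cells, but the extraction protocol names explants as the source of RNA. Summed over 10 mesenchymal markers the libraries held between 3228 and 5615 CPM (counts scaled to the size of the library). Col3a1 alone made up between 1305 and 2301 CPM of these. The sums were between 181 and 241 CPM over 12 haematopoietic markers and between 2311 and 4355 CPM over 10 erythroid markers.

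Proteins that are secreted or inserted into membranes enter the ER through the Sec61 channel and are folded there by chaperones, disulfide isomerases and the calnexin cycle. When unfolded proteins build up, the sensors IRE1 (Ern1), ATF6 and PERK are released from the chaperone BiP (Hspa5): IRE1 splices the Xbp1 transcript, the site-1 and site-2 proteases cut ATF6, and the freed factors raise transcription of chaperones and of the machinery that sends misfolded proteins back to the cytosol for degradation. Many of the target promoters carry the ER stress response element (ERSE), made of a CCAAT box and a CCACG box a fixed distance apart. Counts per gene do not separate the spliced from the unspliced Xbp1 transcript.

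Most ER genes had more reads in the CCCP libraries, by modest amounts. Of the 41 members tested, 29 (70.7%) lay higher in both CCCP libraries than in both untreated libraries, where 24.0% of all 19837 genes tested did so. Another 2 members (4.88%), Edem3 and Mbtps2, lay lower in both CCCP libraries, against 24.8% of all genes, and the groups overlapped for the other 10. The median log2 fold change (CCCP minus untreated) was 0.34 over the members and -0.008 over all genes. Summed over the members, the level was 10595 and 9912 CPM in untreated replicates 1 and 2 and 12804 and 12574 CPM in CCCP replicates 1 and 2.

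No member was called by edgeR's quasi-likelihood test at an adjusted p-value under 0.05, and neither was any other gene (0.00% of all genes). Adjusted p-values of the members ran from 0.151 to 0.993. At an unadjusted p under 0.05, 20 members were higher, where 5.45% of all genes were, and no member was lower, where 9.16% of all genes were. DESeq2 called 9 members as higher, namely Hyou1, Calr, Pdia4, Pdia6, Herpud1, Derl1, Sec61a1, Sec61b and Ssr2, against 0.297% of all genes. It called no member as lower, against 2.70% of all genes. Without the filter on low counts edgeR itself called 1107 of 32261 genes, 217 higher and 890 lower. Of the 42 members it called 13, all higher.

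**Figure D1:**
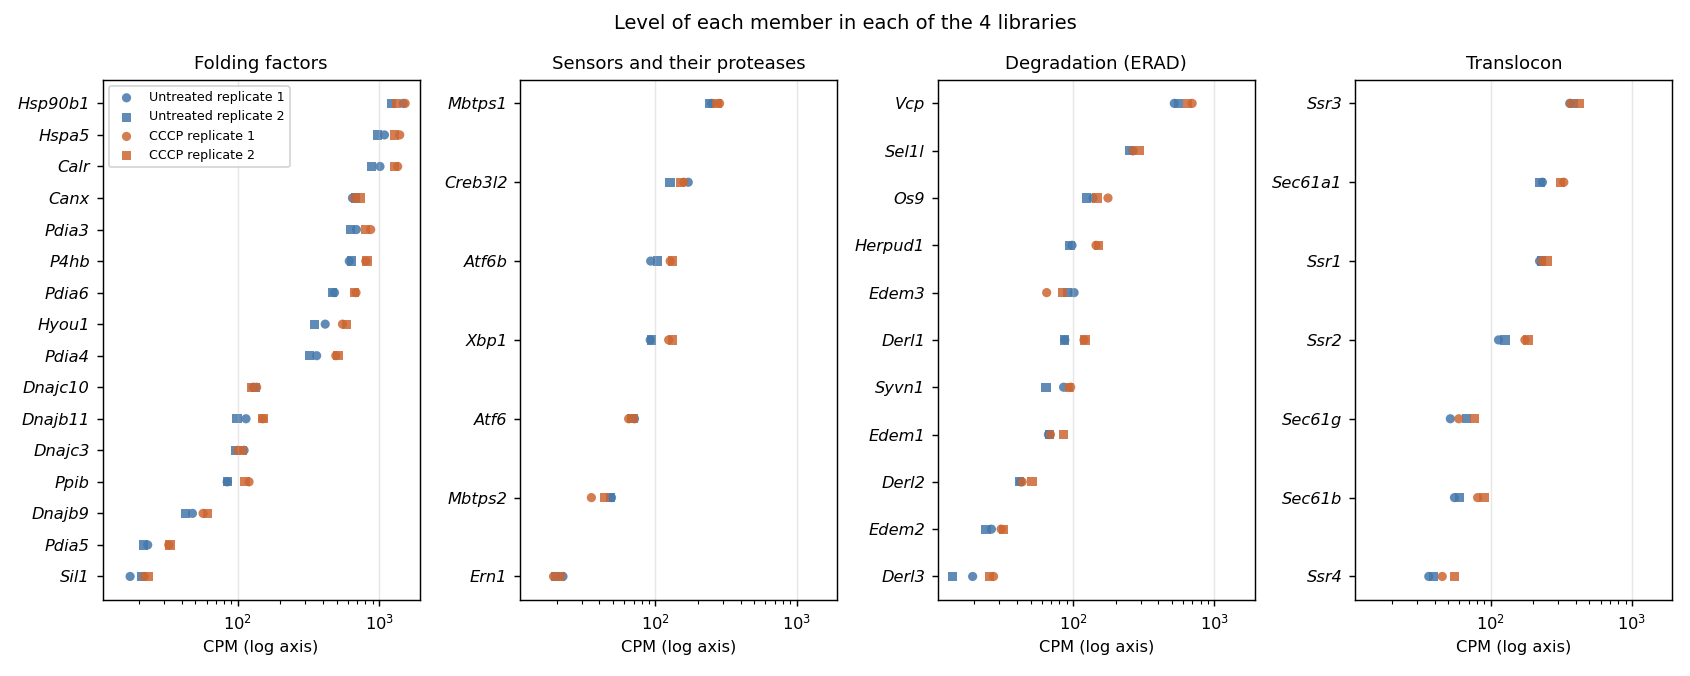
CPM of each of the 41 members in each library, on a log axis, by role and ordered by the untreated mean; blue points are untreated and orange points CCCP libraries, with circles for replicate 1 and squares for replicate 2. Herpud1, Xbp1 and Pdia6 show orange points clear of blue ones, while Dnajc3 and Ern1 show them mixed.

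Promoter sequences are shown first. ERSE was not itself a criterion of choice, but the members were chosen for known roles, and several are textbook examples of its targets. The share of members holding it is therefore not independent of that choice. RefSeq promoter windows (GRCm38.p6, 250 bases before to 50 after the start site) were found for 36 of the 42 members; Hyou1, Sil1, Atf6, Derl1, Sec61a1 and Ssr2 had none. Windows were searched on both strands for ERSE (CCAAT and CCACG with 9 bases between), for ERSE-II (ATTGG and CCACG with 1 base between) and for TGACGTGG, a site bound by XBP1 and ATF6. An exact ERSE stood in 8 of the 36 members (22.2%) and in 37 of all 26994 genes in the table (0.137%). ERSE-II stood in 2 members (5.56%), against 12 genes (0.0445%). The third motif stood in 1 member, Vcp (2.78%), against 193 genes (0.715%), and does not overlap an ERSE there. The matches are listed 5′ to 3′ along the gene's strand, with the boxes in capitals and the spacer in lower case. Calr, Derl3 and one of the Hsp90b1 matches carry the element in the reverse orientation.

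Hspa5: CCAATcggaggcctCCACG
Hsp90b1 (forward): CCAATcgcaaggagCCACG
Hsp90b1 (reverse): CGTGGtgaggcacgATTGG
Calr: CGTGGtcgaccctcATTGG
Canx: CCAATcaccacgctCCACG
Pdia6: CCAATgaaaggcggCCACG
Dnajc3: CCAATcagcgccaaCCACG
Syvn1: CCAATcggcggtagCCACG
Derl3: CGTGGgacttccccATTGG
Herpud1 (ERSE-II): ATTGGgCCACG
Dnajb11 (ERSE-II): ATTGGcCCACG

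The upstream 250 bases are given whole for 3 genes: Hspa5 (chr2:34771840-34772089, plus strand), Herpud1 (chr8:94386179-94386428, plus strand) and Hsp90b1 (chr10:86705445-86705694, minus strand), all on GRCm38.p6. Their log2 fold changes were 0.38, 0.617 and 0.072. With the trend over GC content removed from each library they were 0.439, 0.56 and 0.344, and differences between these genes were not tested. Capitals mark the ERSE or ERSE-II match. In Hspa5 it begins 65 bases before the start site, in Herpud1 52 bases before it, and in Hsp90b1 the matches begin 212 and 107 bases before it.

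Hspa5 upstream: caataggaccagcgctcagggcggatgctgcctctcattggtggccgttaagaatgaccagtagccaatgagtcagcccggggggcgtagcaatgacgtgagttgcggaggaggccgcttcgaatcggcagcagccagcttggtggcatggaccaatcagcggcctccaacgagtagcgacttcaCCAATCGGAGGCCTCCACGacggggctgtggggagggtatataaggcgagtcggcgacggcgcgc
Herpud1 upstream: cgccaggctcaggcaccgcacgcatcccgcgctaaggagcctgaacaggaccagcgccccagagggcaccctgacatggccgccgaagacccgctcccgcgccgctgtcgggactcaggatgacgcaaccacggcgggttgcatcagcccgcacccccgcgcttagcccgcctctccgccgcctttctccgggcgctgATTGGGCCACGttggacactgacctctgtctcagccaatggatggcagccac
Hsp90b1 upstream: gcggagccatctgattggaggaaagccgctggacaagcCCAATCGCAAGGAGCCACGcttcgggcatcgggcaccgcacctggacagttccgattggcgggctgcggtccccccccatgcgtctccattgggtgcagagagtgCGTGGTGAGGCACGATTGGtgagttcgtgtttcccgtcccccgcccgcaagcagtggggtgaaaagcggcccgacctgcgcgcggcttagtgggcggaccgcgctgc

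**Figure D2:**
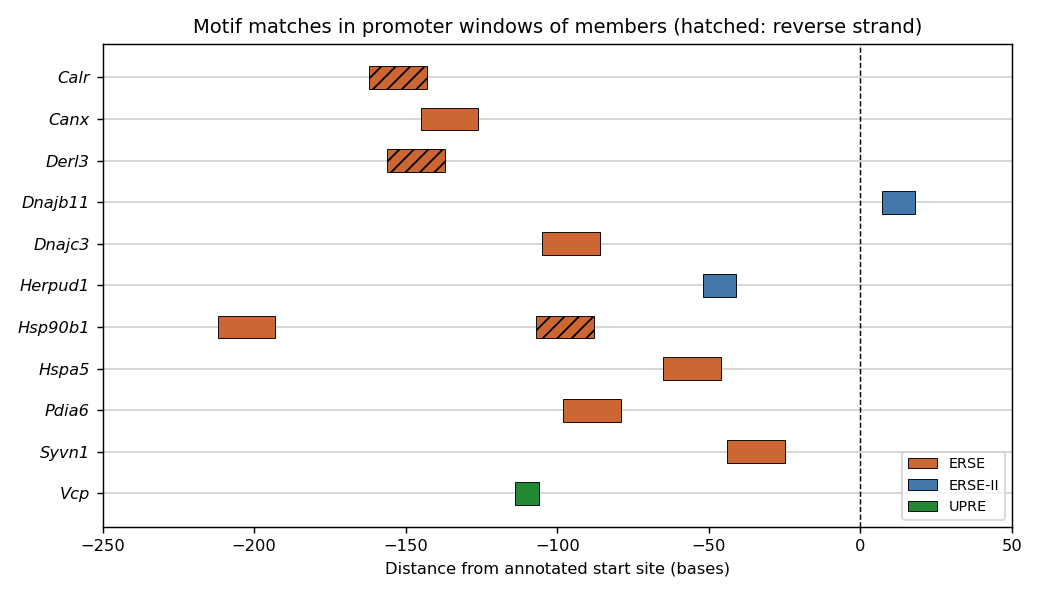
Position of each motif match in the promoter windows of the 11 members that hold one, as distance in bases from the annotated start site (dashed line); bars are drawn to scale and hatched where the element is reversed. The matches begin between 212 bases before the start site (Hsp90b1) and 7 bases after it (Dnajb11).

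Members with and without the element had overlapping differences. The 10 members with ERSE or ERSE-II had a median log2 fold change of 0.43, from -0.005 (Dnajc3) to 0.67 (Derl3), and 7 of them lay higher in both CCCP libraries. The other 25 tested members in the promoter table had a median of 0.305, from -0.37 (Edem3) to 0.56 (Pdia5), and 17 lay higher in both CCCP libraries. Of all genes tested, 24.0% did so. With the GC trend removed the medians were 0.439 with the element and 0.295 without it, and with the length trend removed 0.345 and 0.262. The difference between these sets was not tested. Hsp90b1 and Canx hold the element and had log2 fold changes of 0.072 and 0.079 before correction. With the GC trend removed these were 0.344 and 0.339. A match is a string of letters and not evidence of binding.

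Over the 16 tested folding factors the median log2 fold change was 0.38. In both CCCP libraries 12 (75.0%) lay higher and none lower, against 24.0% and 24.8% of all genes. Among chaperones, Hyou1, the large Hsp70-like exchange factor of BiP, had 415 and 351 CPM untreated and 550 and 587 CPM with CCCP. Its log2 fold change was 0.57 (standard error 0.144, edgeR adjusted p 0.223). BiP itself, Hspa5 (chromosome 2, 34772090 to 34776529 on mm10), had 1091 and 970 CPM untreated and 1398 and 1284 CPM with CCCP, a log2 fold change of 0.38 (standard error 0.151, edgeR adjusted p 0.333). Both genes were thus higher in each CCCP library than in either untreated one, by 1.48-fold and 1.3-fold in the fit. Hsp90b1 (GRP94), the ER form of Hsp90, had 1482 and 1228 CPM untreated against 1529 and 1320 CPM with CCCP. In both groups its replicate 1 was the higher, so that the groups overlapped at a log2 fold change of 0.072 (standard error 0.172, edgeR adjusted p 0.871). Leaving out untreated replicate 2 or CCCP replicate 1 gave -0.038, and leaving out untreated replicate 1 gave 0.223.

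The lectin chaperones of the calnexin cycle, which hold glycoproteins while they fold, had unequal values before correction. Soluble calreticulin, Calr, had 1014 and 881 CPM untreated and 1353 and 1289 CPM with CCCP, with a log2 fold change of 0.48. Membrane-bound calnexin, Canx, had 648 and 677 CPM untreated and 667 and 732 CPM with CCCP, with overlapping groups and a log2 fold change of 0.079. With the GC trend removed the values were 0.439 for Calr and 0.339 for Canx, and the difference between these genes was not tested.

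Of the J-domain cofactors that direct BiP to its clients, Dnajb11 and Dnajb9 were higher with CCCP, and Dnajc3 and Dnajc10 had values near 0. Dnajb11 (ERdj3) had 114 and 98.6 CPM untreated and 150 and 151 CPM with CCCP. Dnajb9 (ERdj4) had 47.7 and 42.8 CPM untreated and 56.7 and 60.8 CPM with CCCP, so that in both genes the groups were apart, with log2 fold changes of 0.499 and 0.38. Dnajc3 (p58IPK), also an inhibitor of PERK, had 111 and 96.9 CPM untreated and 99.8 and 107 CPM with CCCP. Dnajc10 (ERdj5), a disulfide reductase that prepares clients for degradation, had 129 and 133 CPM untreated and 136 and 125 CPM with CCCP. Their log2 fold changes were -0.005 and -0.003, with standard errors of 0.124 and 0.113 and edgeR adjusted p of 0.990 and 0.993. With the GC trend removed the values were 0.242 and 0.295. Sil1, another exchange factor of BiP, had 17.3 and 20.7 CPM untreated and 21.8 and 23.2 CPM with CCCP, a log2 fold change of 0.245. Leaving out untreated replicate 1 gave 0.127 for Sil1, and leaving out untreated replicate 2 gave 0.4.

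All 5 protein disulfide isomerases, which form and rearrange disulfide bonds, lay higher in both CCCP libraries, where 24.0% of all genes did. The isomerases had log2 fold changes from 0.34 (Pdia3) to 0.56 (Pdia5). Pdia4 (chromosome 6, 47796141 to 47813512), which is ERp72, had 361 and 323 CPM untreated and 494 and 512 CPM with CCCP, a log2 fold change of 0.555 (standard error 0.131, edgeR adjusted p 0.206). Pdia6 (P5) had 483 and 466 CPM untreated and 686 and 670 CPM with CCCP. Within each group the libraries of Pdia6 differed by far less than the groups did. P4hb, which also serves prolyl hydroxylase, had 615 and 635 CPM untreated and 805 and 821 CPM with CCCP. Pdia3, the partner of calnexin and calreticulin, had 690 and 627 CPM untreated and 871 and 800 CPM with CCCP. Pdia5 was scarce, with 23.0 and 21.5 CPM untreated and 32.4 and 33.1 CPM with CCCP.

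The prolyl isomerases were hard to read. Ppib (cyclophilin B; chromosome 9, 66060169 to 66066629) had 84.0 and 84.4 CPM untreated and 120 and 112 CPM with CCCP, a log2 fold change of 0.46 (standard error 0.111, edgeR adjusted p 0.206). However, 54.2% of its exon bases are also exons of Snx22 on the other strand, and counting did not use strand. Fkbp2 (chromosome 19, 6977737 to 6980464) had only 6 and 5 counts in the untreated libraries and 4 and 9 counts in the CCCP libraries. Of its exon bases 92.7% are shared with LOC114841036 on the same strand, and a read overlapping both genes was left uncounted, so its level could not be measured.

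**Figure D3:**
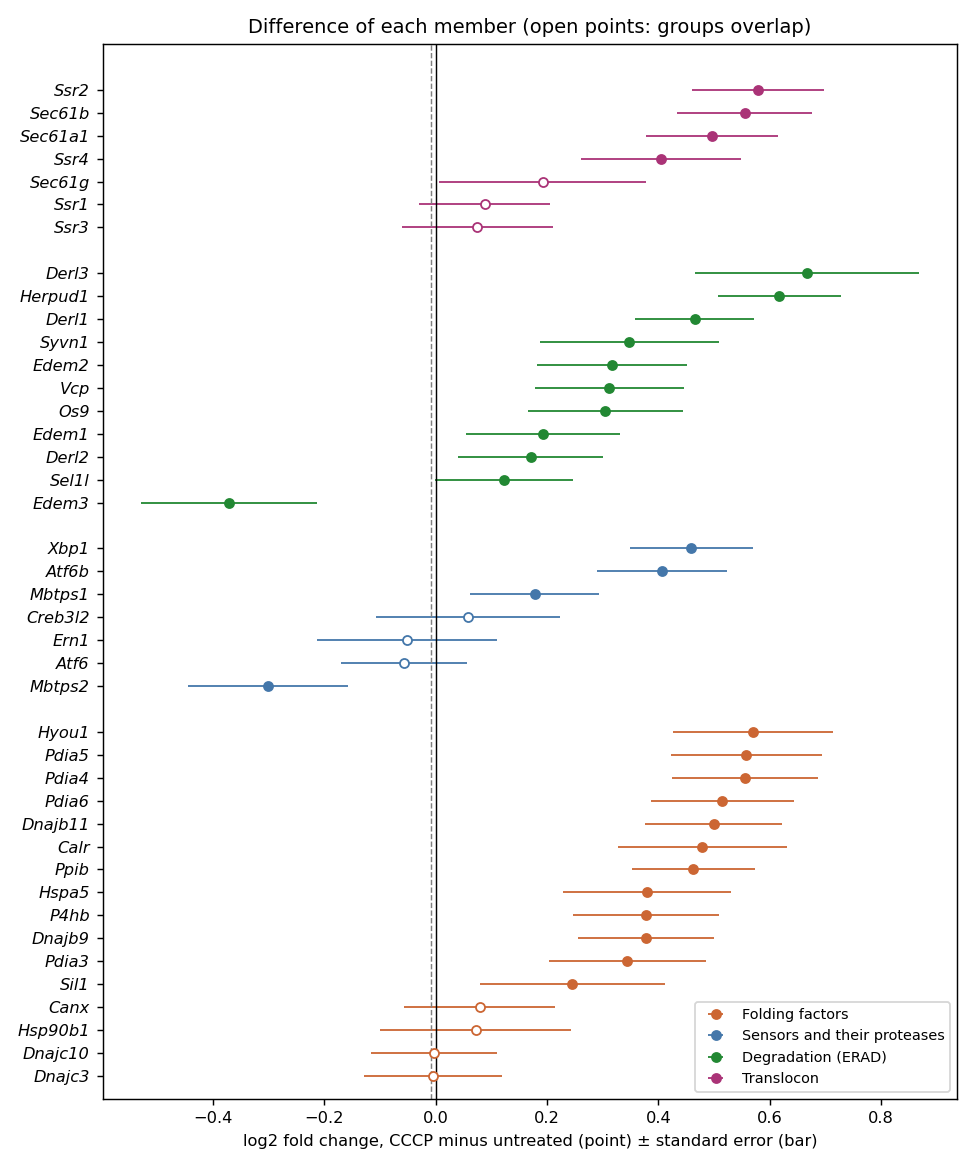
Log2 fold change of each tested member, CCCP minus untreated, with its standard error from edgeR (n = 2 libraries per group), by role; filled points are members whose groups do not overlap, the solid line marks 0 and the dashed line the median of all genes (-0.008). Of the 41 points, 35 lie to the right of 0, and Edem3 and Mbtps2 are the filled points to the left.

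The sensors and their proteases had the smallest median of the 4 roles, 0.058 over 7 genes before correction. In both CCCP libraries 3 (42.9%) lay higher and 1 (14.3%) lower, against 24.0% and 24.8% of all genes. With the length trend removed the sensor median was 0.246, beside 0.305 for folding factors, 0.331 for degradation and 0.314 for the translocon. With the GC trend removed it was 0.138, beside 0.428, 0.284 and 0.414 for those roles. Differences between the roles were not tested. Without untreated replicate 2 the sensor median before correction was -0.067, and without untreated replicate 1 it was 0.208. Xbp1 (chromosome 11, 5520641 to 5525993), the transcription factor that IRE1 activates and that is also a target of ATF6, had 91.7 and 94.1 CPM untreated and 124 and 132 CPM with CCCP. The groups were well apart, with a log2 fold change of 0.46 (standard error 0.11, edgeR adjusted p 0.208). Ern1, the sensor upstream of it, had 22.1 and 19.6 CPM untreated and 19.0 and 21.4 CPM with CCCP. These overlapped, with a log2 fold change of -0.051 (standard error 0.162, edgeR adjusted p 0.906).

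The sensor ATF6 has a close homolog, ATF6B. Atf6 had 71.0 and 68.1 CPM untreated and 64.5 and 69.4 CPM with CCCP, a log2 fold change of -0.056 (standard error 0.113, edgeR adjusted p 0.845). Atf6b, usually described as the weaker activator, had 92.5 and 103 CPM untreated and 127 and 132 CPM with CCCP, a log2 fold change of 0.41. The annotation holds Atf6b on 4 contigs, alternate copies included, and its exon length of 2566 bases was taken from 1 of them. With the GC trend removed the values were 0.15 for Atf6 and 0.226 for Atf6b, and the difference between these genes was not tested.

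The proteases that cut ATF6 in the Golgi had values of opposite sign, a difference that was not tested. Mbtps1 (site-1 protease) had 250 and 242 CPM untreated and 284 and 273 CPM with CCCP, a log2 fold change of 0.18. Mbtps2 (site-2 protease; chromosome X, 157547822 to 157598715) had 48.8 and 48.0 CPM untreated and 35.2 and 43.5 CPM with CCCP, a log2 fold change of -0.30 (standard error 0.143, edgeR adjusted p 0.386). CCCP replicate 1 was the low library: without it the value was -0.155, and without CCCP replicate 2 it was -0.462. Creb3l2, a related membrane-bound factor cut by the same proteases, had 171 and 127 CPM untreated and 159 and 151 CPM with CCCP, both CCCP values lying between the untreated ones.

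In ER-associated degradation the median log2 fold change was 0.31 over 11 genes. Every gene except Edem3 lay higher in both CCCP libraries (90.9%, against 24.0% of all genes). Herpud1 (chromosome 8, 94386429 to 94395371), a scaffold of the degradation complex and a widely used marker of ER stress, had the smallest p-value of all members. It had 98.2 and 95.0 CPM untreated and 145 and 151 CPM with CCCP, a 1.53-fold higher level. On the log2 scale this was 0.62 (standard error 0.11), at an adjusted p of 0.151 in edgeR and 0.00255 in DESeq2. Leaving out any 1 library moved it between 0.587 and 0.65.

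Among the derlins, which help move misfolded proteins across the membrane, the largest log2 fold change of any member was that of Derl3. It had 19.4 and 13.9 CPM untreated and 27.3 and 25.6 CPM with CCCP, a log2 fold change of 0.67 (standard error 0.201, edgeR adjusted p 0.264). The untreated libraries were unequal, and leaving out replicate 1 gave 0.937 and leaving out replicate 2 gave 0.465. Derl1 (chromosome 15, 57869502 to 57892418) was steadier, with 87.3 and 87.1 CPM untreated and 119 and 121 CPM with CCCP, a log2 fold change of 0.465 (standard error 0.107, edgeR adjusted p 0.204). Derl2, annotated on 2 contigs, had 42.6 and 41.6 CPM untreated and 43.6 and 51.2 CPM with CCCP, a log2 fold change of 0.171, or 0.051 without CCCP replicate 2 and 0.282 without CCCP replicate 1.

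Genes of the mannosidase-like proteins that mark glycoproteins for degradation had unequal values, and differences between them were not tested. Edem2 had 26.4 and 24.1 CPM untreated and 30.9 and 32.0 CPM with CCCP, a log2 fold change of 0.317. Edem1 had 66.8 and 68.2 CPM untreated and 69.1 and 85.3 CPM with CCCP, and without CCCP replicate 2 its log2 fold change went from 0.193 to 0.033, and without CCCP replicate 1 to 0.337. Edem3 (chromosome 1, 151755344 to 151822328) had 102 and 91.0 CPM untreated and 65.0 and 84.3 CPM with CCCP, a log2 fold change of -0.37 (standard error 0.158, edgeR adjusted p 0.352). Without CCCP replicate 1 the Edem3 value was -0.194, and without CCCP replicate 2 it was -0.568. Os9, the lectin that reads the trimmed glycan, had 138 and 124 CPM untreated and 177 and 148 CPM with CCCP, a log2 fold change of 0.305, or 0.17 without CCCP replicate 1.

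The ubiquitin ligase Syvn1 (HRD1) had 85.6 and 64.2 CPM untreated and 96.1 and 94.7 CPM with CCCP, a log2 fold change of 0.348. The untreated libraries were unequal, and Syvn1 was at 0.579 without replicate 1 of that group and at 0.174 without replicate 2. Its partner Sel1l had 264 and 252 CPM untreated and 266 and 296 CPM with CCCP, with CCCP replicate 1 barely above untreated replicate 1. Vcp, the cytosolic ATPase that pulls the substrate out, had 520 and 559 CPM untreated and 696 and 644 CPM with CCCP, a log2 fold change of 0.31.

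All 7 translocon genes had positive log2 fold changes, with a median of 0.405. Of these, 4 (57.1%) lay higher in both CCCP libraries, against 24.0% of all genes, and the groups overlapped for the other 3. The channel subunit Sec61a1 (chromosome 6, 88503607 to 88518800) had 232 and 223 CPM untreated and 329 and 313 CPM with CCCP, a log2 fold change of 0.496 (standard error 0.118, edgeR adjusted p 0.206). The small subunit Sec61b (chromosome 4, 47474661 to 47483233) had 55.4 and 60.5 CPM untreated and 80.7 and 89.5 CPM with CCCP, a log2 fold change of 0.555 (standard error 0.121, edgeR adjusted p 0.192). The other small subunit, Sec61g, had 51.8 and 67.5 CPM untreated and 59.4 and 76.8 CPM with CCCP. In Sec61g replicate 2 was the higher in each group, and the log2 fold change of 0.192 had a standard error of 0.186, ranging from -0.005 to 0.412 with 1 library left out.

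The 4 subunits of the translocon-associated protein complex, which assists the channel, had unequal values. Ssr2 (chromosome 3, 88579608 to 88588420) had 114 and 126 CPM untreated and 175 and 184 CPM with CCCP, a log2 fold change of 0.58 (standard error 0.119, edgeR adjusted p 0.178). Ssr4 had 36.4 and 39.6 CPM untreated and 45.4 and 55.3 CPM with CCCP, a log2 fold change of 0.405, or 0.255 without CCCP replicate 2. Ssr1 had 222 and 230 CPM untreated and 229.9 and 250 CPM with CCCP, with overlapping groups and a log2 fold change of 0.088. Ssr3 had 362 and 387 CPM untreated and 367.5 and 422 CPM with CCCP, again overlapping, with 0.075. Differences between the subunits were not tested, and their order turned with each correction: with the GC trend removed the values were 0.478 for Ssr2, 0.318 for Ssr4, 0.138 for Ssr1 and 0.496 for Ssr3, and with the length trend removed 0.409, 0.197, 0.347 and 0.012. Exons are 1293 and 922 bases long in Ssr2 and Ssr4, and 9339 and 2885 bases in Ssr1 and Ssr3. Of the Ssr1 exon bases 33.6% are shared with Gm52041 on the other strand.

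Exon length and GC content moved with these differences. Across the 41 members, Spearman's rho of the log2 fold change was -0.678 with exon length and 0.597 with GC content, as a description, since the members share the same 4 libraries. Over all 19837 genes it was -0.361 with length, and over the 18205 genes with a GC value 0.369. With genes split into 10 equal bins by exon length, the median log2 fold change was 0.22 in the bin of shortest exons and -0.363 in that of the longest. Each member was therefore set beside all tested genes in its own bin of exon length and of mean expression. The median of those backgrounds was 0.209, and 34 of the 41 members lay above their own, by a median of 0.149.

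**Figure D4:**
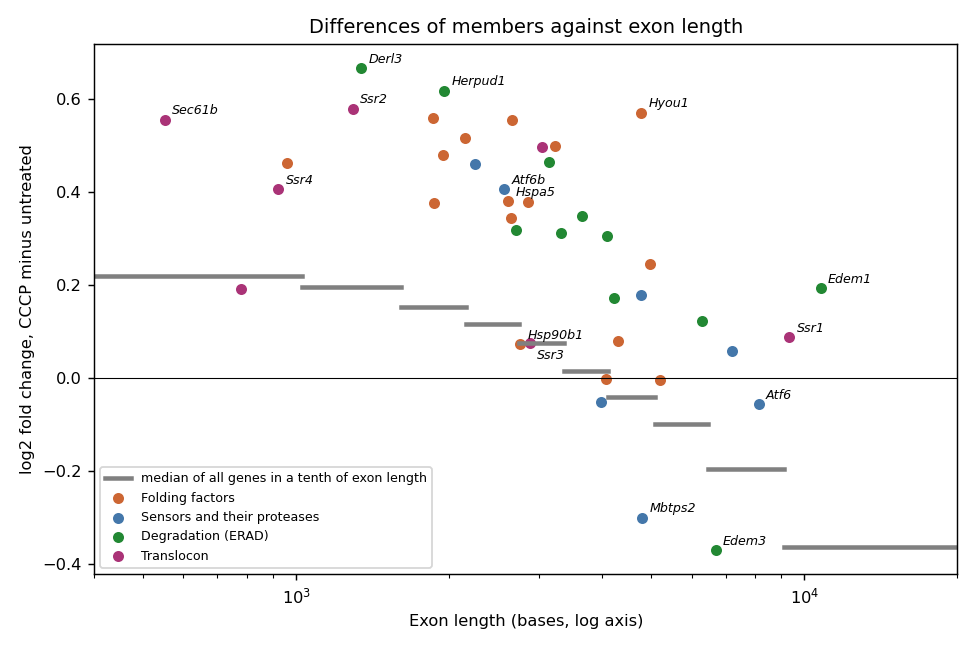
Log2 fold change of the 41 members (points, by role) against exon length on a log axis; grey lines give the median of all genes in each of 10 bins of exon length, clipped at the edges of the axis. Most members of every role lie above the grey line at their length, Sec61g, Mbtps2 and Edem3 among those below it.

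By role, the medians above that background were 0.155 for folding factors (14 of 16 above it), 0.112 for sensors (5 of 7), 0.18 for degradation (10 of 11) and 0.193 for the translocon (5 of 7). Hyou1 stood 0.504 above its background and Edem1 0.487, with 4774 and 10771 bases of exon, while Hsp90b1 stood at -0.137 and Mbtps2 at -0.323. Without CCCP replicate 2 the log2 fold change itself was 0.524 for Hyou1 and 0.033 for Edem1. Without CCCP replicate 1 it was 0.616 and 0.337. For Ssr2 and Sec61b the distance was 0.214 and 0.193, less than their log2 fold changes of 0.58 and 0.555.

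Once the length trend was taken out of each library, the median over the members was 0.298, where all genes had 0.017. With the GC trend removed it was 0.351, where all genes had -0.006. Some single members moved far. GC content is 42.7% in Hsp90b1, 42.9% in Canx and 39.6% in Ssr3, and with the GC trend removed their log2 fold changes were 0.344, 0.339 and 0.496. Edem1 stood at 0.494 and Ssr1 at 0.347 with the length trend removed. Atf6 turned from -0.056 to 0.165 with the length trend removed and to 0.15 with the GC trend removed, while Ern1 stayed negative under both, at -0.032 and -0.131.

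**Figure D5:**
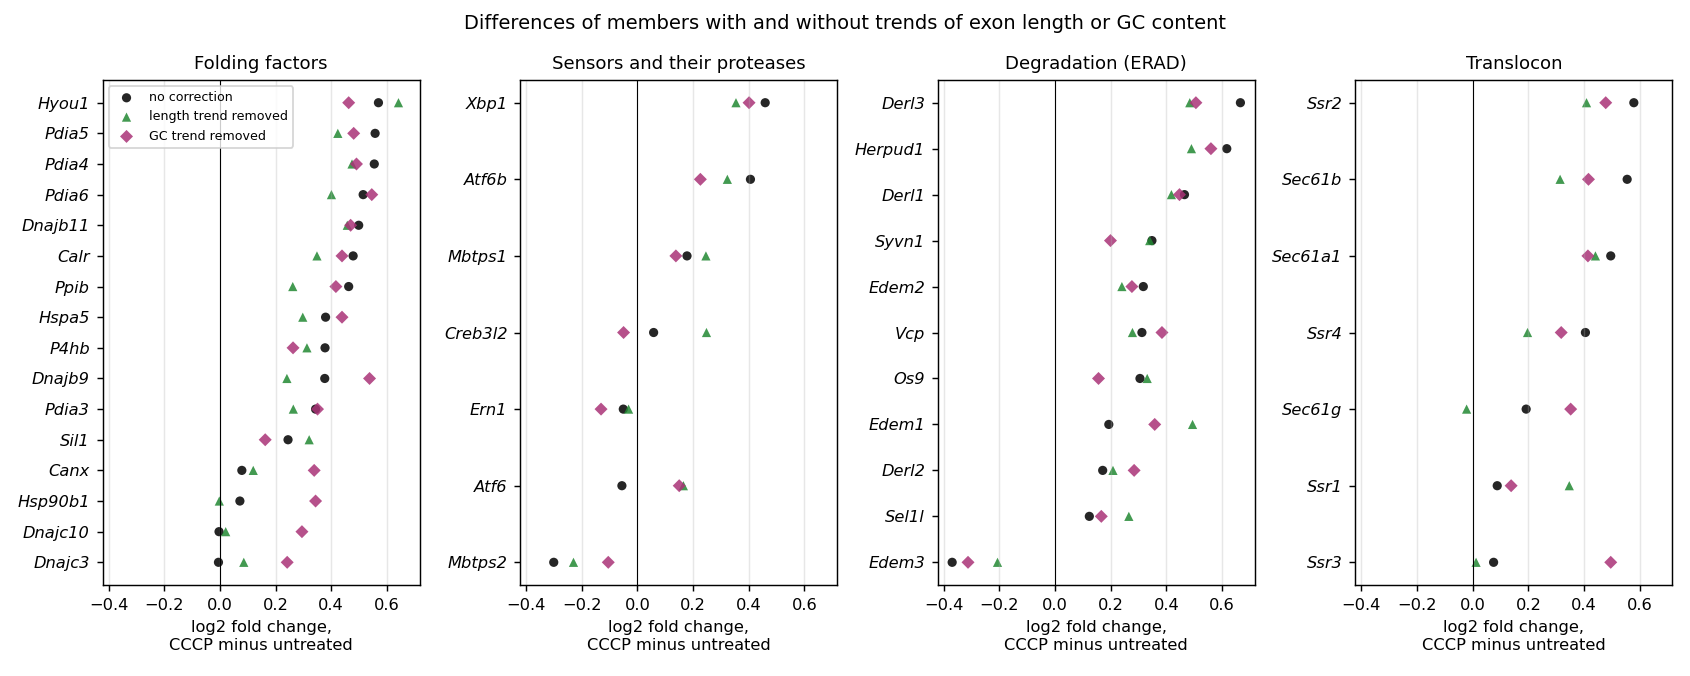
Log2 fold change of each of the 41 members without correction (black circles), with the exon length trend removed (green triangles) and with the GC trend removed (magenta diamonds), by role. Xbp1, Herpud1 and Derl1 stay between 0.354 and 0.617, while Ssr3 and Hsp90b1 range from near 0 to 0.496 and 0.344.

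The levels themselves span a wide range. Per kilobase of exon, the untreated libraries held 445 and 537 CPM of Hsp90b1, 453 and 522 of Calr and 371 and 417 of Hspa5 (lowest and highest). Hsp90b1 and Calr could not be ordered beyond their spread, and Hspa5 lay below both. Next came Pdia3 (237 and 261), Pdia6 (217 and 225) and P4hb (215 and 222), of which Pdia6 and P4hb overlapped. The scarcest measurable members were Sil1, at 3.48 and 4.18 CPM per kilobase, and Ern1, at 4.94 and 5.57.

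Other genes of the same pathway, from 4 lists that hold no member, were read the same way. None was called by edgeR, as for every gene. DESeq2 called 1 as higher and 1 as lower in the first list and none in the second. It called 3 as higher in the third and 1 as higher in the last. Over all genes DESeq2 called 0.297% as higher and 2.70% as lower. In both CCCP libraries 24.0% of all genes lay higher and 24.8% lower, the background for the counts below. In no list did the lower count exceed that 24.8%. Of 27 genes of oxidative folding and the glycan cycle, 13 lay higher and 5 lower in both CCCP libraries, with a median log2 fold change of 0.179. Txndc5 and Erp29, of the disulfide isomerase family, had 0.486 and 0.437. Uggt2, a glycoprotein sensor of folding, and Ero1a, the oxidase that recharges the disulfide isomerases, had -0.812 and -0.526. Ero1a had 81.6 and 102 CPM untreated and 60.3 and 67.0 CPM with CCCP, lower in both CCCP libraries.

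Of 22 further degradation genes, 15 lay higher and 4 lower in both CCCP libraries, with a median of 0.188. Selenos and Selenok, selenoproteins of the degradation complex, had 0.436 and 0.343, and Marchf6, a ligase, and Erlec1, a lectin, had -0.289 and -0.282. Of 27 genes of targeting, signal peptidase and glycosylation, 19 lay higher and 2 lower, with a median of 0.301. The oligosaccharyltransferase subunit Rpn1 had 260 and 262 CPM untreated and 401 and 378 CPM with CCCP, a log2 fold change of 0.576, and Serp1 had 0.533. Sec61a2, the scarcer paralog of Sec61a1, had -0.416, and Sec63 had -0.225.

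Of 18 other stress signalling genes, 11 lay higher and 1 lower, with a median of 0.314. Ddit3 (CHOP), the transcription factor downstream of PERK, had 36.6 and 37.5 CPM untreated and 56.9 and 54.6 CPM with CCCP, and Ppp1r15a (GADD34), the phosphatase subunit that reverses the PERK signal, had 37.7 and 45.7 CPM untreated and 56.2 and 60.8 CPM with CCCP. The gene lower in both was Creb3l3, a factor made mainly in liver and gut, at 2.30 and 1.47 CPM untreated and 0.515 and 0.579 CPM with CCCP. Creb3l4 had -0.175 with overlapping groups.

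Marker transcripts of other cell types differed beside these results. All 12 hepatic markers lay lower in both CCCP libraries, where 24.8% of all genes did. The hepatic sum was 1535 and 905 CPM untreated and 5.25 and 73.0 CPM with CCCP. Of 10 neural and neural crest markers 3 lay higher and 3 lower, against 24.0% and 24.8% of all genes. The neural sums were 777 and 761 CPM untreated and 922 and 876 CPM with CCCP. Of these sums, Tubb3 made up 369 and 372 CPM untreated and 506 and 479 CPM with CCCP. Markers of pancreas and plasma cells, which are among the professional secretory cells, were scarce except Sdc1, with Prss1 and Ins2 at 0 in all 4 libraries. Their sum was 90.3 and 133 CPM untreated and 138 and 164 CPM with CCCP, of which Sdc1 made up 74.2, 110, 118 and 146 CPM. The haematopoietic sum was 216 and 241 CPM untreated and 181 and 211 CPM with CCCP. Sums of the erythroid, endothelial, mesenchymal, skeletal muscle, and kidney and gonad lists overlapped between the groups. The part of cell makeup in the members' differences was not tested, and in explants more cells of a type and more RNA per cell cannot be told apart.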

How the data were processed

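RNA of 4 explant libraries was enriched for poly(A) and prepared with a directional kit, per the labels' protocols. The authors deposited unnormalized read counts for each gene, from featureCounts 2.0.3 run on exons of the mm10 RefSeq annotation, per the file headers. No strand option and no option for pairs, multi-mapping or shared reads was set, so each read of a pair was counted, and reads touching more than 1 gene were dropped. The alignment named in the header of untreated replicate 1 differs by a letter from its label. HISAT2 is named without a version in the submitters' processing notes. Libraries held between 37360968 and 48827826 counts; 3 counts equal 0.0614 to 0.0803 CPM, and such floors cover counting error only.

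Counts were tested with edgeR 4.0.16 in R 4.3.3 (quasi-likelihood F-test, TMM scaling, filterByExpr with a minimum count of 10 and total of 15, group as the sole term, two-sided, Benjamini-Hochberg adjustment over 19837 genes, threshold 0.05), and with DESeq2 1.42.0 as an alternative. Scripts were tested on simulated data. Standard errors are the log2 fold change divided by the square root of F. An exact permutation test of 2 against 2 libraries cannot reach 0.05. Trends were removed per library with a robust lowess (span 0.3) on exon length, counted on 1 contig where a gene lies on several, or on GC content of GENCODE transcripts (known for 91.8% of genes tested). The smoother was changed to a robust one, and the length to 1 contig, after the data were seen.

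The members and lists were chosen with earlier results of these data known. Full statistics were given for the 5 members with the smallest p in each direction and for 8 set genes. Of each pathway list the 2 genes with the smallest p in each direction were named, without standard errors or adjusted p. Protein sequences were not analysed here.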

Additional observations from a re-analysis of the deposited data

How the results depend on the processing

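No gene was called by edgeR with RLE scaling or with the exon length or GC trend removed. DESeq2 called 594 of 19837 genes (59 higher), 9 of them among the 41 members. Without the filter on low counts edgeR called 1107 of 32261 genes (217 higher), 13 of them among the 42 members. All these members were higher. Leaving out 1 library gave from 1 to 34 genes and from 0 to 0 members; the lone library left in a group is then assumed to vary like the other group. With the replicate number as a replicate block, edgeR called 2118 of 19837 genes (754 higher) and 18 of 41 members. Once the length trend was also removed it called 1568 genes (755 higher) and 14 members. Once the GC trend was removed instead it called 1011 genes (315 higher) and 15 members. All members called were higher. Deviations of same-numbered libraries correlated at 0.36, but 2 pairs are too few to show pairing, so calls under the block were not used. The median of the folding factors was 0.305 with the length trend removed, 0.307 with the block as well, and from 0.4 to 0.467 with 1 library left out. That of the sensors was 0.246 with the length trend removed, also with the block, and from -0.067 to 0.208 with 1 library left out. For degradation the latter range was 0.247 to 0.392, for the translocon 0.255 to 0.483, and for all members 0.319 to 0.363. Some members near 0 changed sign. Dnajc3 and Dnajc10 were at 0.000 and 0.002 with DESeq2 and with RLE scaling, and at 0.008 and 0.010 without the filter. With the GC trend removed Dnajc3 was at 0.242, Dnajc10 at 0.295, Atf6 at 0.150 and Creb3l2 at -0.050, and with the block as well at 0.245, 0.293, 0.150 and -0.033. With the length trend removed Hsp90b1 was at -0.002, Dnajc3 at 0.086, Dnajc10 at 0.021, Atf6 at 0.165 and Sec61g at -0.022; with the block as well the latter 4 were at 0.086, 0.021, 0.165 and -0.025. With 1 library left out, sign changed for Hsp90b1 (-0.038 to 0.223), Creb3l2 (-0.123 to 0.297), Dnajc3 (-0.080 to 0.102), Dnajc10 (-0.063 to 0.054), Ern1 (-0.138 to 0.046), Sec61g (-0.005 to 0.412) and Ssr3 (-0.029 to 0.172). The cause of these shifts was not tested. What limits precision here, the depth or the number of libraries, was not tested.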

Other observations

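Beyond the members, 39 genes in the RefSeq promoter table held an exact ERSE or ERSE-II, and 22 of them were tested. Their median log2 fold change was -0.176, against 0.43 for the 10 members with either element. With the length trend removed these medians were -0.112 and 0.345, and with the GC trend removed -0.121 and 0.439. The lowest single value of the 22, -1.317 in Gm39859, came from between 0.331 and 1.18 CPM. Of the 22, 4 lay higher and 8 lower in both CCCP libraries, where 24.0% and 24.8% of all genes did. Both counts were small, and their distance from these background shares was not tested. The 4 were Creld2, an ER-resident protein secreted under ER stress, Alg12, a mannosyltransferase of the ER glycan precursor, Krtcap2, a subunit of the oligosaccharyltransferase, and Nucb1, a calcium-binding protein of the Golgi, with log2 fold changes of 0.686, 0.607, 0.495 and 0.436. Creld2 had 81.1 and 65.7 CPM untreated and 122 and 114 CPM with CCCP. Of those lower, Rbm39, a splicing factor, had 594 and 626 CPM untreated and 392 and 378 CPM with CCCP, a log2 fold change of -0.664, and Hnrnpa3, which binds RNA in the nucleus, had -0.345. Ero1b, which also held an element, had overlapping groups at a log2 fold change of 0.151. These genes were named after their values were seen.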
